A study of Mus musculus with 4 samples.

Results

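The genes of the translation initiation factors were followed in B16F10 cells, an established line from a pigmented melanoma of C57BL/6 mice, after treatment with plumbagin, a plant naphthoquinone. They were taken as every gene whose annotated symbol begins with Eif1, Eif2, Eif3, Eif4, Eif5 or Eif6, leaving out the Eif2ak kinases, which phosphorylate eIF2, and pseudogenes. This gave 37 of 17097 named genes, each read by its brightest probe set over the 4 arrays among those annotated to that gene alone. Several factors had no such probe set, among them Eif4g1, Eif3a and Eif5b, so the 37 genes do not cover the whole machinery. The samples were 2 of cells given 2 µM plumbagin for 24 h (plumbagin 1 and plumbagin 2) and 2 of untreated cells that had MilliQ water at 0 µM plumbagin (control 1 and control 2), with 1 array each. All 4 samples came from the same tumour cell line, and nothing in the labels says that they were grown as separate cultures. The p-values therefore measure only the spread between these samples, which may be technical. In the comparison of plumbagin with control this spread includes any difference between samples numbered 1 and samples numbered 2.

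Initiation factors bring the small ribosomal subunit, the initiator tRNA and the mRNA together and place the ribosome at the start codon. The eIF4 proteins bind the cap and unwind the leader, eIF3 holds the small subunit and the mRNA, eIF2 carries the initiator tRNA with GTP, and eIF5 and eIF5B drive the last steps. In tumour cells initiation is controlled mainly through phosphorylation of eIF2, which blocks its recycling by eIF2B, and through the 4E-BP inhibitors, which hold the cap-binding protein until mTORC1 phosphorylates them.

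Values were RMA expression values on the log2 scale, so a difference of 1 is a doubling of the array signal. The array medians lay between 4.32 and 4.39. Plumbagin 1 stood apart in its 18 hybridization control probe sets, with a mean of 9.58, against 8.46 to 8.77 on the other arrays, and in its upper quartile of 6.26, against 6.34 to 6.36. The 7 melanocyte markers read, Pmel, Sox10, Tyr, Mitf, Mlana, Dct and Tyrp1, were all above background, which was set at 5.05, the 95th percentile of 41 odorant receptor genes. Of the 12 markers of fibroblasts, leukocytes, endothelium and keratinocytes that were read, 2 were above it, Cd3e and Kdr.

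Of the 37 initiation factor genes, 34 were above background, with mean values from 7.26 to 12.50. The other 3 were Eif4e, the canonical cap-binding protein (mean 3.57, 1 probe set), Eif2s3y, the Y-linked copy of the eIF2 gamma subunit (2.90), and Eif2b5, the catalytic subunit of eIF2B (4.08, 1 probe set). Values of these 3 genes give no information on a change in their transcripts. Values of different probe sets depend on the probes and were not compared as amounts of RNA.

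**Figure D1:**
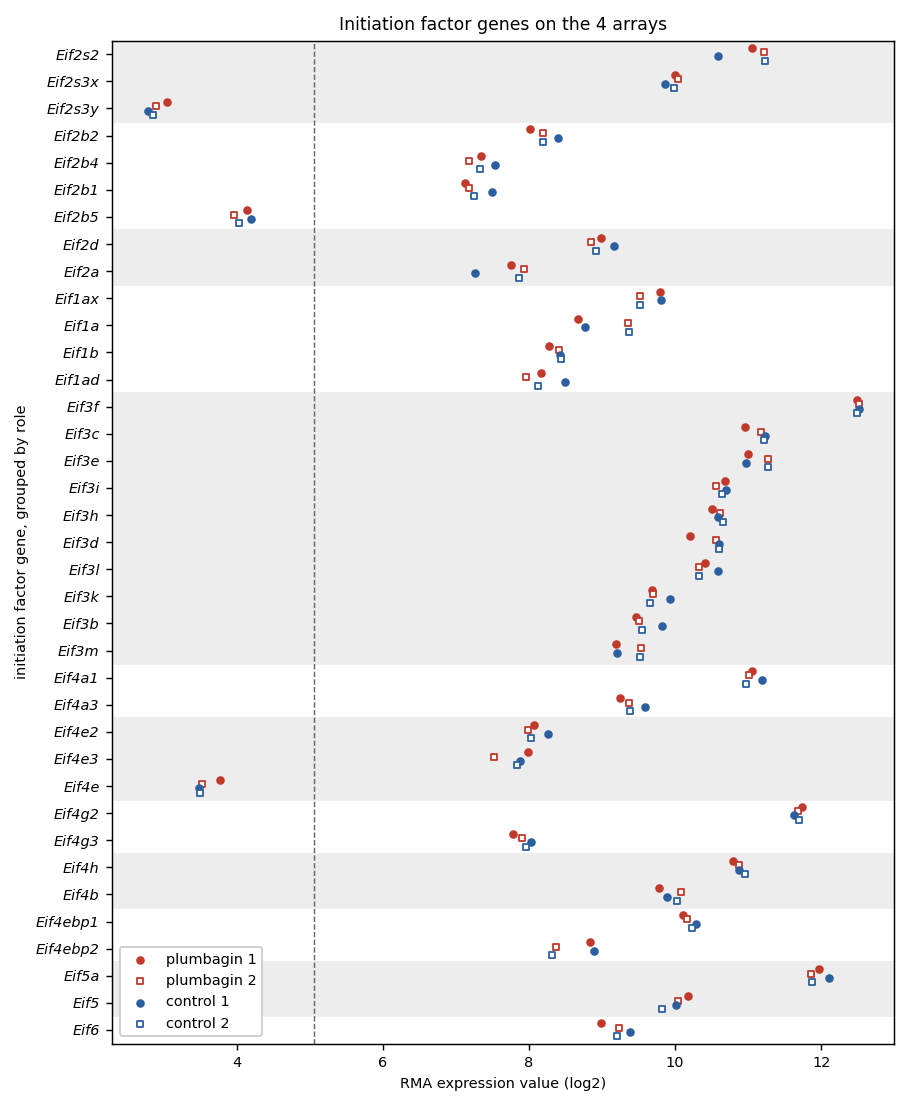
Expression value (x axis, log2) of the 37 initiation factor genes (y axis, shaded by role) on plumbagin 1, plumbagin 2, control 1 and control 2, 1 point per array. The dashed line is the background level of 5.05, with Eif4e, Eif2s3y and Eif2b5 to the left of it and the other 34 genes to the right.

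Promoter sequence was looked up because mRNAs of the translation machinery often begin with a pyrimidine tract that places them under mTORC1 control, and because the E-box CACGTG is bound by MYC with MAX, known regulators of translation factor genes. RefSeq windows of 250 bases before to 50 bases after the gene start (GRCm38.p6) were listed for 29 of the 37 genes. CACGTG, which reads the same on both strands and was searched with no other overlapping motif, lay in the windows of 7 of the 29 genes (24.1%), against 8.09% of the 27025 genes with a window. Base composition differed between these sets, with a median GC content of 61.3% in the windows of the factors, against 52.7% in all windows. Among windows with at least 60% GC the motif lay in 25% of 16 factor genes, against 11.6% of 8543 genes. Of the genes with the motif, 4 from the eIF3 and eIF4 groups are shown as examples, with CACGTG in capitals and 12 bases on either side.
Eif3f, chr7:108934335-108934364, plus strand, motif starting 68 bases before the gene start: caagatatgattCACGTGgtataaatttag
Eif3k, chr7:28981915-28981944, minus strand, 44 bases before the gene start: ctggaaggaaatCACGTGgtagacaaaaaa
Eif4a1, chr11:69672595-69672624, minus strand, 189 bases before the gene start: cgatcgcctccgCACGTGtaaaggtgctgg
Eif4h, chr5:134639488-134639517, minus strand, 96 bases before the gene start: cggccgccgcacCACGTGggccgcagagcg
The others with the motif were Eif1b, Eif4e and Eif5a. Of the genes above background, the 6 with the motif had a median difference between plumbagin and control of -0.08 (log2), with 6 lower, against -0.12 with 15 lower in the 20 genes without it.

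A run of at least 5 pyrimidines beginning with C at the annotated gene start was found in 2 of the 38 windows of the factors (5.26%), against 2.51% of all 32851 windows. Both are shown, from 10 bases before the start to 20 from it, with the run in capitals, beside Eif5, which had no such run and had the smallest p among the genes with higher values.
Eif3f, chr7:108934405-108934434, plus strand: tctaggctctCTCTCTTTCTCggcaagatg
Eif2s3x, chrX:94212632-94212661, minus strand: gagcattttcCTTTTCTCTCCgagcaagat
Eif5, chr12:111538091-111538120, plus strand: cgacgtgcatgcgagccaatgacaagagaa
A match describes the letters in the window and was not tested as a site of control.

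Plumbagin was compared with the control to see whether the transcripts of the initiation machinery differed after 24 h. None of the 37 genes passed the test (limma, two-sided, Benjamini-Hochberg adjusted over 17097 genes, adjusted p = 1 for each), and 0 had an unadjusted p below 0.05, against 0.988% of all genes. Over all genes 0 passed (0%), so the comparison called nothing anywhere on the array. The differences were small: from -0.24 for Eif1ad to 0.29 for Eif2a on the log2 scale, or 1.18-fold lower to 1.22-fold higher. The 95% intervals show what n = 2 per group allowed, and their width varied between genes. The narrowest of the factors was that of Eif3f, from -0.21 to 0.20, and the widest that of Eif1a, from -0.91 to 0.80. For Eif2b1 it ran from -0.54 to 0.08.

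Values were lower with plumbagin in 28 of the 37 genes and higher in 9, against a share of 55.1% lower over all genes. Among genes above background they were lower in 27 of the 34 factors (79.4%), against 65.1% of all 8637 such genes. The median difference was -0.08 for the factors, -0.01 for all genes and -0.05 for genes above background. The plumbagin values were both below the control values in 9 of the 37 genes (24.3%), against 15.2% of all genes. Among genes above background they were both below in 9 of the 34 factors (26.5%), against 18.3% of all such genes. They were above both in 4 of the 37 genes (10.8%), against 10.2% of all genes. Among genes above background they were above both in 2 of the 34 factors (5.88%), against 5.66% of all such genes. The 9 were Eif2b1, Eif3b, Eif3c, Eif3d, Eif4a3, Eif4g3, Eif4h, Eif4ebp1 and Eif1b, and the 4 were Eif5, Eif2s3x, Eif4e and Eif2s3y, of which Eif4e and Eif2s3y were not above background. Without plumbagin 1 the median was -0.07 for the factors, with 25 of 37 lower, and -0.02 for all genes. Without control 2 it was -0.15 for the factors, with 26 lower, and -0.03 for all genes. After repeated quantile normalization the median of the factors was -0.05 with 26 lower, against -0.0122 for all genes. After cyclic loess it was -0.04 with 25 lower, against -0.00518. For these alternatives the median of genes above background was not calculated. The all-gene medians include dim genes, and so are not a like comparison for the factors.

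**Figure D2:**
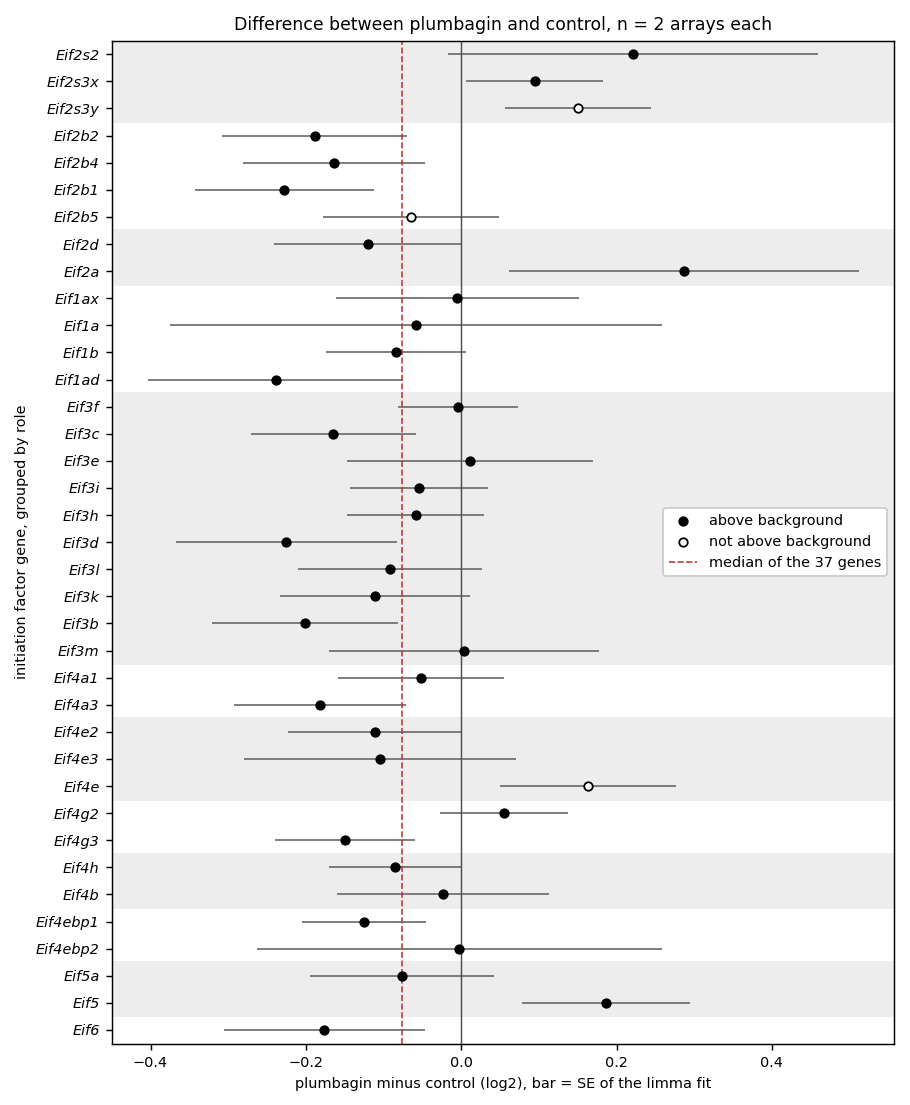
Difference between plumbagin and control (x axis, log2, limma fit, n = 2 arrays each) for each of the 37 genes (y axis, shaded by role), with bars of 1 SE. Points lie between -0.24 and 0.29, open points are the 3 genes not above background, and the dashed line is the median of -0.08.

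The eIF2 complex carries the initiator tRNA. Its beta subunit Eif2s2 had values of 11.05 and 11.21 on plumbagin 1 and 2, against 10.59 and 11.23 on control 1 and 2 (difference 0.22 ± 0.24, SE). The single low array was control 1, the groups overlapped, and the difference was -0.10 without control 1. A second probe set of Eif2s2, above background, differed by 0.28 ± 0.15, with both plumbagin values above both control values. Eif2s3x, the X-linked gamma subunit, had 10.004 and 10.03 on the plumbagin arrays, against 9.86 and 9.99 on the control arrays (0.09 ± 0.09). The groups did not overlap, but the gap between plumbagin 1 and control 2 was under the spread between the controls. Eif2s3x and Eif2s3y are near-identical paralogs, so probes could read both, although both probe sets of Eif2s3y itself were below background. The low values of Eif2s3y were 3.04 and 2.90 on the plumbagin arrays, against 2.78 and 2.86 on the control arrays (0.15 ± 0.09). The alpha subunit gene is not analysed here.

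The eIF2B complex exchanges GDP for GTP on eIF2 and is the step that phosphorylated eIF2 inhibits. All 4 subunit genes measured had lower means with plumbagin. Eif2b1, the alpha subunit, had 7.12 and 7.17 on plumbagin 1 and 2, against 7.50 and 7.25 on control 1 and 2 (-0.23 ± 0.12, SE). It had the smallest p of the 37 genes (limma unadjusted p = 0.114), at rank 832 of 17097. The plumbagin arrays were 0.05 apart and lay below both controls, and the difference was -0.10 without control 1. Eif2b2, the beta subunit, had 8.02 and 8.19 on the plumbagin arrays, against 8.40 and 8.19 on the control arrays (-0.19 ± 0.12), so plumbagin 2 and control 2 coincided, and the difference was -0.08 without control 1. Eif2b4, the delta subunit, differed by -0.16 ± 0.12, and Eif2b5, below background, by -0.07 ± 0.11.

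Eif2a and Eif2d carry eIF2 names but encode separate proteins that can deliver tRNA to the ribosome without the eIF2 complex. Eif2d had 8.98 and 8.85 on plumbagin 1 and 2, against 9.16 and 8.91 on control 1 and 2 (-0.12 ± 0.12, SE). The groups overlapped, and the difference was 0.00410 without control 1. Eif2a had 7.75 and 7.94 on plumbagin 1 and 2, against 7.26 and 7.86 on control 1 and 2 (0.29 ± 0.23). As with Eif2s2, control 1 was the low array, and the controls differed by more than the treatment groups.

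The 4 genes named for eIF1 and eIF1A, which act in scanning and start codon choice, had a median difference of -0.07, with all 4 means lower with plumbagin. Eif1ad, a protein with an eIF1A-like domain, had 8.17 and 7.96 on plumbagin 1 and 2, against 8.49 and 8.12 on control 1 and 2 (-0.24 ± 0.16, SE). Plumbagin 1 lay above control 2, so the groups overlapped, and the difference was -0.05 without control 1 and -0.43 without control 2. Eif1ax, which encodes eIF1A from the X chromosome, had 9.79 and 9.52 on the plumbagin arrays, against 9.81 and 9.51 on the control arrays, values that fell into pairs by replicate number and not by treatment, and its difference turned to 0.0173 with repeated quantile normalization and 0.0434 after cyclic loess. Eif1b, a paralog of eIF1, differed by -0.08 ± 0.09 and Eif1a by -0.06 ± 0.32.

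Eif5, the factor that makes eIF2 hydrolyse its GTP at the start codon, was the gene above background with the smallest p in the upward direction. Its values were 10.17 and 10.04 on plumbagin 1 and 2, against 10.01 and 9.83 on control 1 and 2 (0.19 ± 0.11, SE, limma adjusted p = 1). Plumbagin 2 lay 0.03 above control 1, so the groups were apart by less than the spread within either, and the difference was 0.12 without plumbagin 1 and 0.09 without control 2. All 5 probe sets of Eif5 were above background and had higher means with plumbagin, from 0.16 to 0.31. On the second brightest of them the values were 10.09 and 9.99 on plumbagin 1 and 2, against 9.70 and 9.76 on control 1 and 2, a difference of 0.31 ± 0.08. The groups did not overlap on 3 of the 5 probe sets. The probe sets read the same RNA samples and are not replicates.

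The eIF3 complex is the scaffold between the small subunit and the mRNA, and 10 of its subunit genes were measured, 8 of them lower with plumbagin, with a median difference of -0.08. Eif3d, a subunit that can itself bind the cap of some mRNAs, had 10.20 and 10.56 on plumbagin 1 and 2, against 10.60 and 10.61 on control 1 and 2 (-0.23 ± 0.14, SE). Eif3b, a core subunit that binds RNA, had 9.46 and 9.51, against 9.82 and 9.55 on the controls (-0.20 ± 0.12). Eif3c, a core subunit, had 10.95 and 11.17, against 11.24 and 11.22 (-0.16 ± 0.11). In each of these genes the plumbagin arrays lay below both controls. Plumbagin 1 was the low array in Eif3c and Eif3d, whose differences were -0.06 and -0.05 without it, and control 1 was the high array in Eif3b, which differed by -0.07 without it. The second probe set of Eif3c, above background, differed by -0.29 ± 0.10 and was also apart.

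The other eIF3 subunits differed by less. Eif3f, whose promoter is shown above, had 12.49 and 12.51 on plumbagin 1 and 2, against 12.51 and 12.49 on control 1 and 2. Eif3k differed by -0.11 ± 0.12, Eif3l by -0.09 ± 0.12, Eif3h by -0.06 ± 0.09 and Eif3i by -0.05 ± 0.09 (log2, SE), with overlapping groups in each. Eif3e (0.01 ± 0.16) and Eif3m (0.00331 ± 0.17) were near 0 between treatments and differed between the replicate numbers, as described below.

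The eIF4 proteins bring mRNA to the ribosome. Eif4a1, the RNA helicase of the cap complex, had 11.05 and 11.01 on plumbagin 1 and 2, against 11.19 and 10.97 on control 1 and 2 (-0.05 ± 0.11, SE), with overlapping groups and a difference of 0.06 without control 1. Its relative Eif4a3, a helicase of the exon junction complex that marks spliced mRNA, had 9.25 and 9.36, against 9.59 and 9.38 on the controls (-0.18 ± 0.11). The groups of Eif4a3 were apart, by 0.02 between plumbagin 2 and control 2, and the difference was -0.08 without control 1 and -0.06 as the mean of the gene's probe sets. Eif4h, a cofactor of the helicase, had 10.80 and 10.87, against 10.88 and 10.96 (-0.08 ± 0.08), apart by 0.0075. Its relative Eif4b differed by -0.02 ± 0.14.

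Of the scaffolds, Eif4g3 had 7.78 and 7.91 on plumbagin 1 and 2, against 8.03 and 7.96 on control 1 and 2 (-0.15 ± 0.09, SE), with groups apart by 0.05, and it differed by -0.09 without plumbagin 1 and -0.03 as the mean of its probe sets. Eif4g2, a scaffold relative that lacks the site for the cap-binding protein, had 11.74 and 11.69 on the plumbagin arrays, against 11.62 and 11.70 on the control arrays (0.06 ± 0.08). That value turned to -0.05 when probe sets prone to read several transcripts were left out. Eif4e2, a cap-binding relative known as a repressor, had 8.07 and 7.99, against 8.25 and 8.03 (-0.11 ± 0.11), a difference that was -0.00013 without control 1 and -0.00168 as the mean of its probe sets. Eif4e3, an atypical cap-binding relative, differed by -0.10 ± 0.18, and by 0.10 in number 1 and -0.31 in number 2. The low values of Eif4e itself were 3.77 and 3.53, against 3.48 and 3.49.

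Eif4ebp1, which encodes the 4E-BP inhibitor of cap binding and is a known ATF4 target, had 10.11 and 10.16 on plumbagin 1 and 2, against 10.29 and 10.23 on control 1 and 2 (-0.13 ± 0.08, SE). The groups did not overlap, and with each array left out in turn the difference stayed between -0.15 and -0.10. On its second probe set, above background but dimmer, Eif4ebp1 differed by -0.25 ± 0.26 and the groups overlapped. Eif4ebp2, its paralog, differed by -0.00229 ± 0.26, with 8.83 on plumbagin 1 and 8.37 on plumbagin 2, against 8.89 on control 1 and 8.32 on control 2. Eif5a, the hypusine-carrying factor that aids elongation and termination, had 11.97 and 11.86 on the plumbagin arrays, against 12.11 and 11.87 on the control arrays (-0.08 ± 0.12), with overlapping groups and a difference of 0.04 without control 1. Eif6, which keeps free large subunits from joining small ones, had 8.99 and 9.24, against 9.38 and 9.20 (-0.18 ± 0.13). The groups of Eif6 overlapped, and the difference was -0.05 without plumbagin 1, -0.30 without plumbagin 2 and -0.05 as the mean of its probe sets.

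Because the titles number the samples 1 and 2 in each group, the treatment was also compared within each number. Between plumbagin 1 and control 1 the median difference of the factors was -0.11, with 28 of 37 lower and a range from -0.40 (Eif3d) to 0.49 (Eif2a). Between plumbagin 2 and control 2 it was -0.02, with 23 of 37 lower and a range from -0.31 (Eif4e3) to 0.21 (Eif5). In number 1 the 34 factors above background had a median of -0.14, with 79.4% lower, against -0.11 and 69.1% for all genes above background. In number 2 these factors had a median of -0.02, with 64.7% lower, against -0.00160 and 50.7%. Plumbagin was lower in both numbers in 19 of the 37 genes (51.4%), against 29% of all genes. It was higher in both in 5 (13.5%), against 21.7% of all genes. Among genes above background it was lower in both in 18 of the 34 factors (52.9%), against 36.8% of all such genes. It was higher in both in 3 of these factors (8.82%), against 16.9%.

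**Figure D3:**
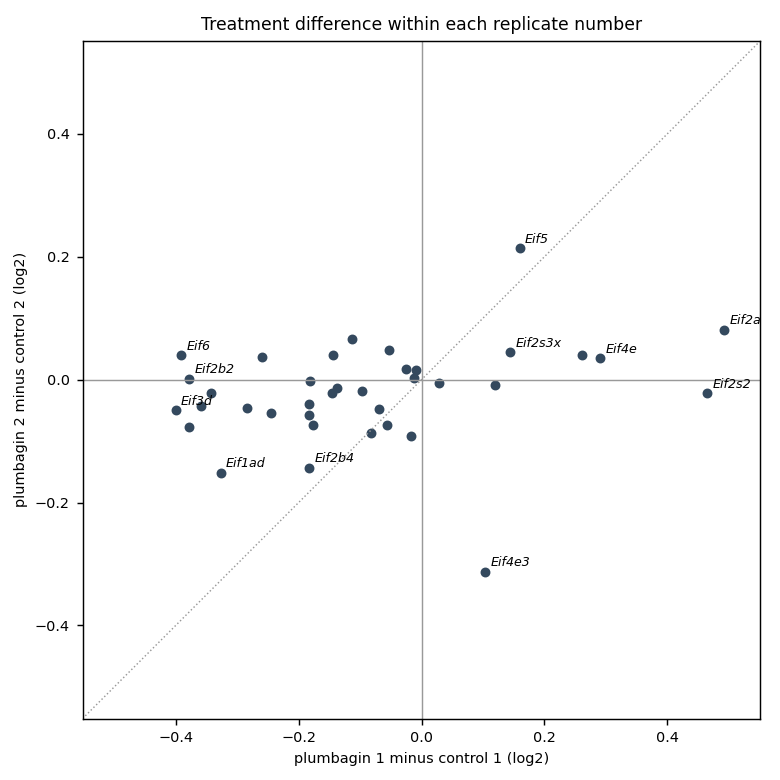
Difference between plumbagin 1 and control 1 (x axis, log2) against that between plumbagin 2 and control 2 (y axis, log2) for the 37 genes, 1 point per gene, with the dotted line marking equal values. Points spread from -0.40 to 0.49 along x and from -0.31 to 0.21 along y, and Eif5 lies near the line in the upper right.

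The means of the number 1 arrays and of the number 2 arrays differed by more than those of the treatments in 20 of the 37 factors (54.1%), against 61.6% of all genes and 65.5% of genes above background. The labels do not say what the number stands for. The median size of the difference between the numbers was 0.13 in the factors, and that between the treatments was 0.11. Eif1a, the autosomal copy of eIF1A, had 8.67 on plumbagin 1 and 8.77 on control 1, against 9.35 on plumbagin 2 and 9.37 on control 2 (number 1 minus number 2, -0.64 ± 0.08, SE, in a limma fit with treatment as the other term, adjusted p = 0.167). A second probe set of Eif1a showed the same order, with -0.74 between the plumbagin arrays and -0.73 between the controls. Eif4ebp2 was higher in number 1, by 0.52 ± 0.08 (adjusted p = 0.167).

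Eif3m and Eif3e, both subunits of the structural core of mammalian eIF3, were lower in number 1 in both treatments, with differences of -0.33 ± 0.08 and -0.29 ± 0.08 (number 1 minus number 2, log2, SE). Eif1ax was higher in number 1, by 0.28 ± 0.08, but its dimmer probe set had -0.64 between plumbagin 1 and 2 and -0.34 between the controls, so its probe sets disagreed in direction. No factor passed the adjusted test between the numbers (limma, 0 of 37, with 0% of all genes). At an unadjusted p below 0.05 there were 7, or 18.9%, against 15.8% of all genes and 27.2% of genes above background. Both number 1 arrays lay on one side of both number 2 arrays in 19 of the factors (51.4%). This compares with 49% of all genes and 56.8% of genes above background, so as a list the factors did not stand out from the array.

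**Figure D4:**
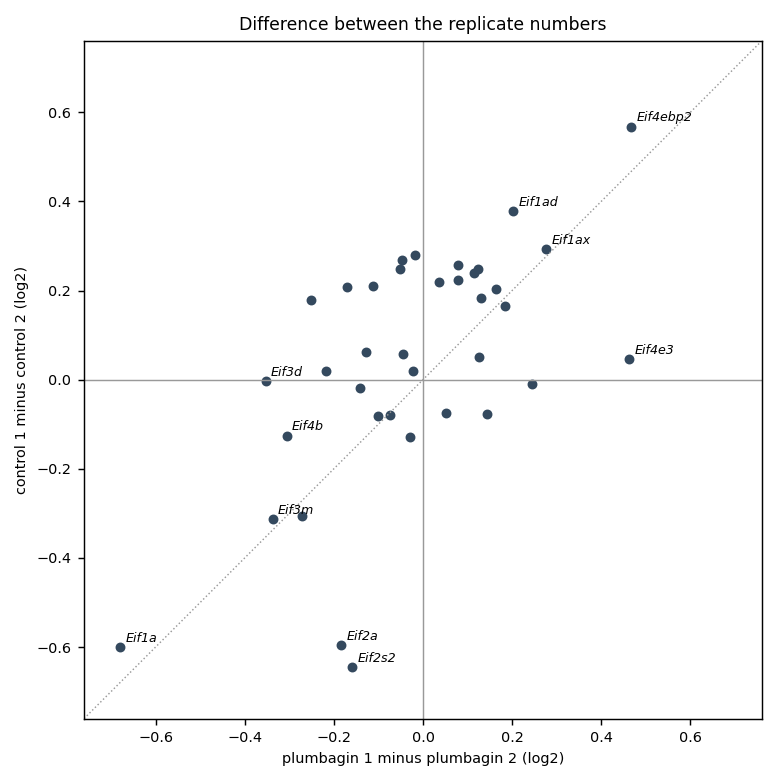
Difference between plumbagin 1 and plumbagin 2 (x axis, log2) against that between control 1 and control 2 (y axis, log2) for the 37 genes, 1 point per gene. Eif1a lies at the lower left and Eif4ebp2 at the upper right, both near the dotted line of equal values.

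Other probe sets gave a check within the same samples. The 37 genes had 82 probe sets, and 25 genes had more than 1. Of the 34 other probe sets above background, 25 had a difference of the same sign as the one used and 9 of the opposite sign. Among the 21 genes with more than 1 probe set above background, those of Eif2s3x, Eif1a, Eif3l, Eif4e2, Eif4e3, Eif4g2, Eif4g3 and Eif4ebp2 lay on both sides of 0. Those of the others, among them Eif5, Eif2s2, Eif3c and Eif4h, lay on one side. The third probe set of Eif2s3x differed by -0.12 ± 0.20.

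**Figure D5:**
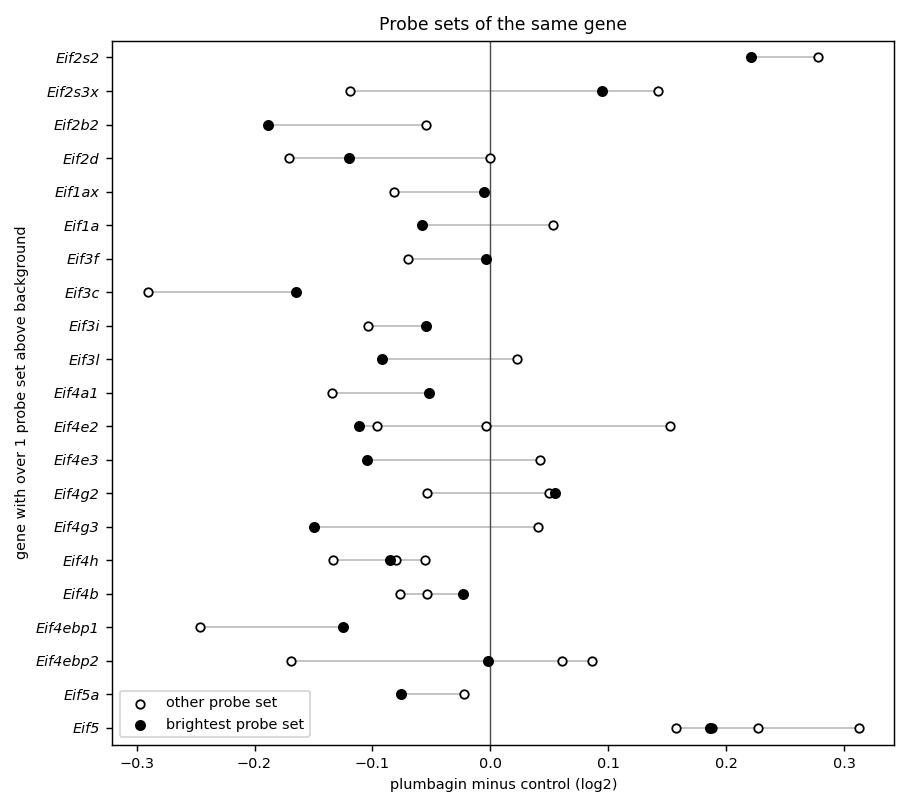
Difference between plumbagin and control (x axis, log2) for each probe set above background of the 21 genes with more than 1 such probe set (y axis). Filled points are the brightest probe set and open points the others, and all 5 points of Eif5 lie between 0.16 and 0.31.

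Genes that act around the factors were read from 4 lists, of which 0 members passed the adjusted test, with an unadjusted p below 0.05 (limma) for Gcn1, Mknk1 and Tbc1d7, against 0.988% of all genes. The share of lower values in each list stands beside 65.1% of genes above background. Of 13 eIF2 kinase and phosphatase genes, 9 were lower, with a median of -0.07. Gcn1, the activator of the amino acid sensor kinase GCN2, had 6.46 and 6.47 on plumbagin 1 and 2, against 6.99 and 6.70 on control 1 and 2 (-0.38 ± 0.12, SE), and Eif2ak1, the heme-regulated kinase, differed by -0.20 ± 0.11. The groups of both were apart. Ppp1r15b and Ppp1r15a, subunits of eIF2 phosphatases, differed by -0.16 ± 0.13 and -0.94 ± 0.78, with overlapping groups. Ppp1r15a had 6.83 and 8.94 on plumbagin 1 and 2, against 8.39 and 9.26 on control 1 and 2, so plumbagin 1 was the low array. Of 13 measured genes of mTORC1 and MNK signalling to the cap complex, 9 were lower, with a median of -0.03. Rptor and Mtor, subunits of mTORC1, differed by -0.13 ± 0.09 and -0.16 ± 0.11, and Tbc1d7, a subunit of its TSC inhibitor, by -0.34 ± 0.13. Mknk1, a kinase of eIF4E, differed by -0.43 ± 0.11 but was below background.

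Of 14 measured initiation helpers outside the eIF names, 9 were lower, with a median of -0.04. Dhx29, a helicase for structured leaders, differed by -0.26 ± 0.13 (log2, SE), and Abcf1, a partner of eIF2, by -0.15 ± 0.10. Of 13 elongation and termination factor genes, 10 were lower, with a median of -0.06. The smallest p of this list was that of Gspt2, which was below background and higher with plumbagin, by 0.16 ± 0.09 with groups apart. Gspt1, the release factor eRF3, differed by -0.16 ± 0.10, and Eef2k, the kinase that inhibits elongation factor eEF2, by -0.18 ± 0.13. The medians of these lists and of the initiation factors, all between -0.03 and -0.08, lay around that of genes above background, -0.05. Between plumbagin 1 and control 1 the lower genes of the 4 lists, in the order given, numbered 9, 10, 9 and 10. Between plumbagin 2 and control 2 they numbered 8, 6, 11 and 5. Of all genes above background, 69.1% were lower in number 1 and 50.7% in number 2.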

How the data were processed

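Total RNA of 4 B16F10 samples was hybridized to Affymetrix strips of mouse genome arrays, with an array for each sample, per the labels' protocols. The authors deposited log2 values for 45141 probe sets. Per the submitters' processing notes these came from RMA, with Transcriptome Analysis Console and Affymetrix Expression Console as the programs; no versions were stated. The RMA normalization makes array distributions alike, so a shift of most genes is removed. Symbols of the 28898 probe sets annotated to 1 gene were updated through RefSeq (GRCm38.p6). Each gene took the probe set with the highest mean. Differences were fitted with limma 3.58.1 (lmFit, eBayes, R 4.3.3) and no covariates, adjusted over 17097 genes at 0.05. The code was tested on simulated data with independent noise and shifts far larger than the differences of the factors. That test therefore does not show whether differences of their size could be detected. The fit between replicate numbers was added after seeing the values and leaves 1 residual degree of freedom. Members and lists were chosen with earlier results of these data known.

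Values were given per array for the 12 factors with the smallest p and the brightest of each role group. Of the other lists, up to 4 genes with the smallest p could be named. The remaining factors were named as members. Eif1a, Eif2a and Eif4ebp2 were given per array after their values were seen. Alternatives were other uses of probe sets, a filter on dim genes, 3 normalizations, a trended or a robust eBayes, a block for the replicate number, and each array left out in turn. The number of arrays limits the precision.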

Additional observations from a re-analysis of the deposited data

How the results depend on the processing

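No initiation factor passed the adjusted limma test under any of the 14 alternatives, and the lowest adjusted p of the factors given per array by rule was 0.792. At an unadjusted p below 0.05 there were 0 factors, and 0 to 3 with 1 array left out (1 without plumbagin 1, 1 without plumbagin 2 and 3 without control 2). With every probe set on its own there were 2 of 82 probe sets, 50 were lower, and 8 lay apart above the controls. The matching shares of all probe sets were not counted in that setting. The share of all genes at an unadjusted p below 0.05 was not counted with 1 array left out. The counts of these settings therefore do not show whether the factors stood out from the array. Filtering dim genes left 2 factors apart above. With 1 array left out, a single array is taken to spread as much as the other group does. Fewer arrays also make groups overlap less often. In these fits 13 to 24 factors lay apart below and 6 to 8 above. The share of all genes apart was not counted in them, so these counts are not a result about the factors. There 23 to 26 factors were lower, and the median of the factors was -0.15 to -0.06. It was -0.04 after cyclic loess and -0.05 after repeated quantile normalization.

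The numbers were not taken to pair the samples: there were only 2 pairs and the labels do not say what a number means. Deviations from the group means correlated by 0.54 over 17097 genes. The fit without a block counts a difference between the numbers as spread within a group. For Eif1a the SE was 0.32 in that fit. The SE of its number term was 0.08 in the fit with treatment as the other term. With the replicate number as a block, 0 factors and 0 genes passed.

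Of 305 values of single factors under the alternatives, 294 kept their direction and 11 turned, 8 of them on leaving out an array. Eif4g2 turned to -0.0534 without probe sets ending in _x_at or _s_at, and Eif1ax to 0.0173 with repeated quantile normalization and 0.0434 after cyclic loess. With 1 array left out Eif1ax lay between -0.15 and 0.14, Eif3f between -0.0147 and 0.00715, Eif2s2 between -0.10 and 0.54, Eif4a1 between -0.16 and 0.0570, Eif5a between -0.20 and 0.0435, and Eif2d between -0.24 and 0.00410. Leaving out an array moved 21 of the 22 single values by over 1.5 times or across 0, Eif4ebp1 excepted. The cause was not tested.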
